A study of Mus musculus with 12 samples.

Results

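The genes described here build cholesterol and fatty acids and set how much of each a cell makes. They are 38 of the 55376 genes in the deposited count table, picked as the rows whose symbol matches one on a list of enzymes, sterol sensors, a sterol carrier, the liver X receptors and targets of those receptors. All 38 had counts, and 37 passed the filter on low counts, which left 11994 genes for testing. Nr1h3 did not pass.

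Messenger RNA was sequenced from cultured mouse bone marrow progenitors, sorted as positive for c-Kit and Sca-1 and negative for lineage markers, in 12 libraries. There are 4 groups of 3 libraries. Empty vector control cells carried an empty MSCV retrovirus and the pLKO.1 control shRNA. Fusion control cells carried MSCV with NUP98-NSD1, an oncogene of acute myeloid leukaemia that joins a nuclear pore protein to a histone methyltransferase, and the same control shRNA. The other two groups carried the fusion and either shNizp1#1 or shNizp1#2, hairpins against Nizp1, a zinc finger protein listed in the table under its current symbol Zkscan17. Every group, controls included, thus carried a retroviral vector selected with geneticin and a lentiviral shRNA vector with a puromycin marker, and grew with 20 ng/ml interleukin-3, 20 ng/ml interleukin-6 and 100 ng/ml stem cell factor. In the libraries analysed here neither hairpin against Nizp1 was paired with the empty vector. The question is how each step of the sterol and fatty acid pathways differed by vector, by shRNA and by replicate number.

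Cholesterol synthesis starts from acetyl-CoA, passes through mevalonate and the isoprenoid units to squalene, closes into lanosterol and ends with a series of demethylations, reductions and isomerisations. Fatty acid synthesis draws on the same acetyl-CoA. Both pathways are governed by the sterol regulatory element binding proteins (SREBPs), transcription factors held in the endoplasmic reticulum by Insig proteins while sterols are plentiful and escorted by Scap to the Golgi for cleavage when sterols run low. The liver X receptors (LXRs) act on the other side: when bound by oxysterols they raise the genes that export cholesterol and that degrade the receptor for low-density lipoprotein, and they also raise Srebf1. Proliferating blood cells rely on both synthesis and uptake to build membranes.

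The targeted gene was read first. Zkscan17 was at 64.2, 56.96 and 68.2 CPM (counts scaled to the library total) in empty vector control cells, 62.6, 49.4 and 61.8 CPM in fusion control cells, 34.97, 26.2 and 30.4 CPM with shNizp1#1 and 29.03, 17.6 and 26.997 CPM with shNizp1#2. Here and below, 3 values of a group stand in the order of replicate numbers 1, 2 and 3. Both shRNA groups lay below both control groups without overlap, and the difference from fusion control cells passed in edgeR with the replicate number as a block (adjusted p = 0.00198 and 2.90e-04) but not without it (adjusted p = 0.49 and 0.228). Totals ran from 3586538 to 6842589 counts per library, and on the CPM scale 3 counts corresponded to 0.417 to 0.837. The series' description speaks of independent experiments without tying a number to one, and p-values therefore measure the spread between these libraries. Libraries with the same number deviated together from their group means: the 18 such pairs had correlations across genes of 0.223 to 0.877, and all 12 libraries correlated best with their own number. Each group comparison below is hence given both without and with the number as a block. Among sorted-cell markers, Kit was at 1930.4 to 3105 CPM and Ly6a, which encodes Sca-1, at 23.8 to 277 CPM, whereas Flt3 reached at most 3.86 CPM. The 10 mast cell markers summed to 38061 to 62217 CPM, so the libraries hold mast cell transcripts at a high level in all 4 groups. In bulk RNA, fewer cells of a type and less RNA per cell cannot be told apart.

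Per kilobase of exon the pathway genes were well above the typical gene: the median of the 37 tested members was 37.8 CPM per kilobase, against 10.0 over all tested genes. Scd2, a stearoyl-CoA desaturase that places the double bond of oleic acid, had the highest level of all members at 303 CPM per kilobase. Msmo1 (101), Fads2 (98.1), Sqle (97.9) and Hmgcs1 (87.7 CPM per kilobase) came next, closer to one another than their SDs over the 12 libraries. At the low end stood Fdps (4.49), Elovl6 (4.04), Abca1 (2.73) and Nr1h3 (0.526 CPM per kilobase). The level of Fdps, which makes farnesyl diphosphate, is uncertain, because 77.4% of its exon bases also belong to Gm43738 on the same strand. Acat2 shared 33.9% of its 75-base stretches with other genes (Acat3 foremost), Acaca 26.8%, Idi1 23.6% and Fdft1 21.8%, and reads from such stretches could have been dropped or assigned elsewhere. On the opposite strand, Fdft1 overlapped Ctsb over 19.4% of its exon bases, and the strand setting of the counting is not given in the sources used here.

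**Figure D1:**
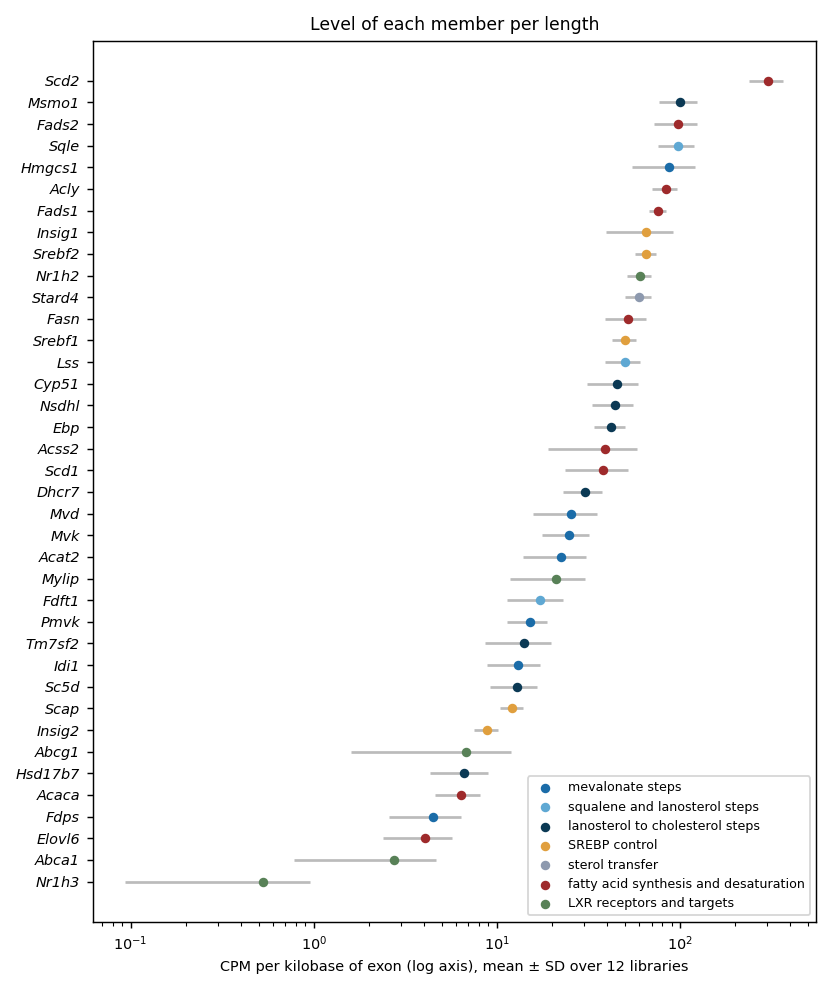
Level of each of the 38 genes in CPM per kilobase of exon on a log axis, with points at the mean over 12 libraries, bars of 1 SD and colours for pathway steps. Scd2 stood alone at 303 CPM per kilobase, and Nr1h3 was lowest at 0.526.

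Promoter sequence was added for the genes on which the results turn, to show what the enzymes of the sterol and fatty acid pathways share at their starts. SREBPs bind sterol regulatory elements and usually act together with NF-Y, which binds the CCAAT box. RefSeq promoters on GRCm38.p6 were matched for 30 of the 38 genes, each start with 250 bases before it and 50 after. Some genes had several listed starts, and a gene counted as holding a motif if the window of any start held it. Such genes had more chances of a match. Counted in this way, 14 of 15 matched sterol synthesis genes (93.3%) held CCAAT on one or the other strand, Acat2 being the exception. Of these, Dhcr7 held 2 boxes at its most downstream start and 0 at the others. Pmvk held 1 at its upstream start and 0 at the other. Of all 30 matched members, 22 held CCAAT (73.3%), among them Insig2 and Srebf1, which also had several starts. The share was 41.1% of the 27025 genes with a listed promoter and 43.5% of the 9223 of those that were tested. Among the matched fatty acid genes, 3 of 6 held it. The core TCACNCCAC, searched on both strands, was found in 1 of 30 (Hmgcs1, 137 bases before the start) and in 1.44% of all promoters. The E-box CACGTG was found in 6 of 30 (20.0%), in 8.09% of all promoters and in 12.0% of those of tested genes. The LXR half-site AGGTCA repeated in tandem with 4 bases between, on either strand, was found in 0 of 30 and in 0.0148% of all. Matches of different motifs were free to overlap, a match is a description and not a binding site, and the absence of a match says only that these letters are not in the window.

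The 150 bases before the start are printed for 5 genes, with the CCAAT box (ATTGG where it lies on the opposite strand) and the TCACNCCAC core in capitals. Hmgcs1 and Idi1 stand for the mevalonate steps, Sc5d and Elovl6 are the members called between the shRNAs below, and Fasn is the central fatty acid enzyme. Hmgcs1 is at chr13:119690201-119690350 on the plus strand, Idi1 at chr13:8885456-8885605 on the plus strand, Sc5d at chr9:42264301-42264450 on the minus strand, Fasn at chr11:120824548-120824697 on the minus strand and Elovl6 at chr3:129532236-129532385 on the plus strand.
Hmgcs1: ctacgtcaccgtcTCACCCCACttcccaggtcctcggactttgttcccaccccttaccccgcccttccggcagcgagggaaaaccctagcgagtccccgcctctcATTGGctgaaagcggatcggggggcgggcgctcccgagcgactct
Idi1: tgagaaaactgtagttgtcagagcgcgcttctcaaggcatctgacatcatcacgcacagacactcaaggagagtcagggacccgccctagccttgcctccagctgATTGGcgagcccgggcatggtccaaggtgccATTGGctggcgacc
Sc5d: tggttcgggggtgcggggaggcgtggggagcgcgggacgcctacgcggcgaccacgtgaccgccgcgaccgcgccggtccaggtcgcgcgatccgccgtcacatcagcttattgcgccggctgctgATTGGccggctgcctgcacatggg
Fasn: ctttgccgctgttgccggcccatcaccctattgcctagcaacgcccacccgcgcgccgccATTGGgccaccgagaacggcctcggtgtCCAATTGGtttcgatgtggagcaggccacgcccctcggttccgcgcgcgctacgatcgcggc
Elovl6: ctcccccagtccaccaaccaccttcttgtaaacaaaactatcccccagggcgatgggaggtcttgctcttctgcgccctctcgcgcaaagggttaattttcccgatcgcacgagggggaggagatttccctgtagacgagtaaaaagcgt
Hmgcs1 carries the only sterol element core among the matched members. Idi1 carries 2 boxes on the opposite strand close to its start, Sc5d 1, Fasn 3 of which a pair overlap, and Elovl6 none.

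Levels by pathway step, group and replicate number are given next. Summed over the 18 sterol synthesis genes, the libraries were at 2133, 1863 and 2523 CPM in empty vector control cells, 2121, 1600.2 and 2282 CPM in fusion control cells, 2144, 985 and 1294 CPM with shNizp1#1 and 2239, 1239 and 2036 CPM with shNizp1#2. Replicate number 1 was nearly level across the 4 groups, while numbers 2 and 3 were lower with shNizp1#1 than with the control shRNA. The 9 fatty acid genes summed to 3451, 4011 and 4347 CPM, 3812, 3568 and 3978 CPM, 4080.1, 2438 and 2433 CPM and 4113, 2732 and 3656 CPM in the same order of groups. Again the libraries of numbers 2 and 3 with shNizp1#1 were the lowest. The 5 SREBP control genes summed to 947, 845 and 879 CPM, 896, 847 and 698 CPM, 943, 635 and 570.1 CPM and 915, 706 and 738 CPM. The 5 LXR receptors and targets summed to 326, 309.7 and 155 CPM, 273, 340.2 and 138 CPM, 259, 391 and 173 CPM and 281, 385 and 146 CPM, number 3 being lowest in every group.

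**Figure D2:**
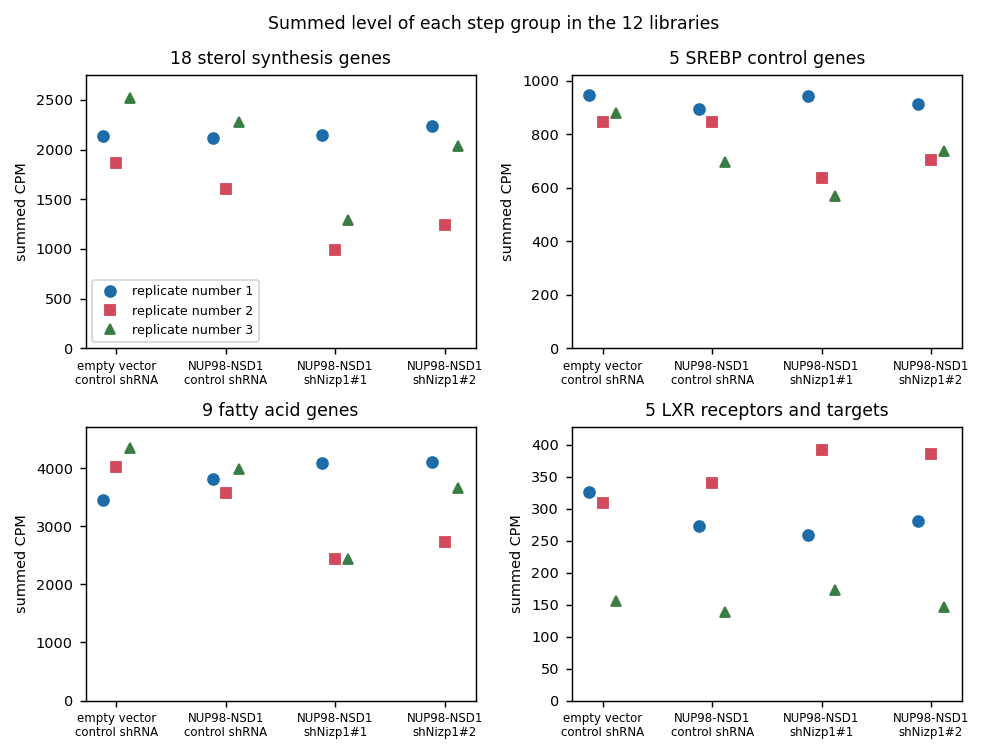
Summed CPM of each set of pathway genes in the 12 libraries, with groups on the horizontal axis and a symbol for each replicate number. For sterol synthesis the shNizp1#1 libraries of numbers 2 and 3 were at 985 and 1294 CPM, against 1600.2 and 2282 CPM in fusion control cells, and the number 3 libraries were lowest for the LXR genes in all groups.

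In the mevalonate steps, Hmgcs1 condenses acetoacetyl-CoA and acetyl-CoA into the precursor of mevalonate. It was at 367, 261 and 492 CPM in empty vector control cells, 350.2, 242 and 455 CPM in fusion control cells, 393, 139 and 196 CPM with shNizp1#1 and 320.3, 144 and 304 CPM with shNizp1#2. Number 2 was lowest in every group, and with shNizp1#1 number 3 was also under all of the 6 control libraries while number 1 was not. Idi1, the isomerase that turns isopentenyl into dimethylallyl diphosphate, was at 51.004, 30.3 and 43.4 CPM in empty vector control cells, 44.7, 39.3 and 46.5 CPM in fusion control cells, 44.01, 14.2 and 27.1 CPM with shNizp1#1 and 59.04, 25.4 and 48.7 CPM with shNizp1#2. The library of number 2 with shNizp1#1 was the lowest of all 12, and in number 1 fusion control cells and shNizp1#1 were nearly level. The other mevalonate genes were Acat2, Mvk, Pmvk, Mvd and Fdps, whose highest library exceeded the lowest by 2.35 times (Pmvk) to 5.08 times (Acat2).

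Sqle oxidises squalene before it is closed into lanosterol. Sqle was at 329, 277 and 339.6 CPM in empty vector control cells, 318, 218 and 261 CPM in fusion control cells, 339, 170.0 and 206 CPM with shNizp1#1 and 324, 194 and 264 CPM with shNizp1#2. Its lowest library was number 2 with shNizp1#1, and the groups overlapped. Sc5d, a late enzyme that puts a double bond into the sterol ring, spans chr9:42251595-42264256 on mm10 in the deposited table. Sc5d was at 79.6, 45.8 and 67.97 CPM in empty vector control cells, 76.9, 49.4 and 72.8 CPM in fusion control cells, 68.5, 32.7 and 40.97 CPM with shNizp1#1 and 93.1, 52.4 and 70.1 CPM with shNizp1#2. All 3 libraries with shNizp1#1 were under the fusion control library of their own number, although number 1 with shNizp1#1 was above number 2 of the control.

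Among the genes of SREBP control, Srebf1 encodes SREBP-1 and Srebf2 encodes SREBP-2. Srebf1 was at 239, 236 and 246 CPM in empty vector control cells, 234, 230.4 and 190.4 CPM in fusion control cells, 237, 150.4 and 174 CPM with shNizp1#1 and 241, 182 and 219.6 CPM with shNizp1#2. Srebf2 was at 358, 357 and 404 CPM in empty vector control cells, 339, 367 and 284 CPM in fusion control cells, 366, 307 and 232 CPM with shNizp1#1 and 334, 325 and 311 CPM with shNizp1#2. Each stayed within a narrow range over the 12 libraries (highest over lowest 1.64 and 1.74 times), less than Hmgcs1 (3.55 times). Insig1, which retains the SREBP complex and is itself an SREBP target, was at 278, 169 and 152 CPM in empty vector control cells, 241, 162 and 154 CPM in fusion control cells, 272, 93.5 and 90.1 CPM with shNizp1#1 and 270.2, 114 and 129 CPM with shNizp1#2. In every group number 1 was well above numbers 2 and 3. Stard4, a soluble carrier of cholesterol, was at 340.1, 307 and 274 CPM in empty vector control cells, 365, 290.0 and 327 CPM in fusion control cells, 365, 241 and 256 CPM with shNizp1#1 and 399, 252 and 311 CPM with shNizp1#2. Its groups overlapped.

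For fatty acids, Fasn makes palmitate. Fasn was at 429, 636 and 820.0 CPM in empty vector control cells, 489, 561 and 588 CPM in fusion control cells, 478, 319.8 and 396 CPM with shNizp1#1 and 524, 420.0 and 629.7 CPM with shNizp1#2. The 3 libraries with shNizp1#1 lay under the 3 fusion control libraries, though number 1 by little. Elovl6, which spans chr3:129532355-129638495 on mm10, lengthens palmitate to stearate. Elovl6 was at 17.8, 23.6 and 34.7 CPM in empty vector control cells, 20.1, 24.4 and 45.1 CPM in fusion control cells, 14.5, 11.7 and 22.5 CPM with shNizp1#1 and 22.2, 20.3 and 40.2 CPM with shNizp1#2. Each shNizp1#1 library was under the 3 others of its number, and number 3 was highest in every group.

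Scd1 and Scd2 place the first double bond in saturated fatty acids. Scd1 was at 181, 236 and 209 CPM in empty vector control cells, 234, 208 and 208 CPM in fusion control cells, 251, 60.8 and 64.2 CPM with shNizp1#1 and 263, 112 and 166 CPM with shNizp1#2. With shNizp1#1, numbers 2 and 3 were under all 9 libraries of the other groups, while number 1 was at the level of the highest ones. Scd2, the most abundant desaturase, was at 1747, 1913 and 1648 CPM in empty vector control cells, 1916, 1704 and 1781 CPM in fusion control cells, 2034, 1171 and 953 CPM with shNizp1#1 and 2104, 1328 and 1565 CPM with shNizp1#2. Here too the shNizp1#1 libraries of numbers 2 and 3 were under the 9 libraries of the other groups, and number 1 was above all but one of them. Fads2, the desaturase that starts the polyunsaturated chain, was at 298, 329.6 and 435 CPM in empty vector control cells, 311, 271 and 313 CPM in fusion control cells, 432, 171 and 233 CPM with shNizp1#1 and 382, 206 and 327 CPM with shNizp1#2. For Fads2 number 1 with shNizp1#1 was nearly as high as the highest library, number 3 of the empty vector.

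Among LXR genes, Nr1h3 encodes LXR alpha and had 72 counts over all 12 libraries. Nr1h3 was at 0.529, 0.995 and 1.09 CPM in empty vector control cells, 1.31, 2.61 and 0.196 CPM in fusion control cells, 0.714, 1.40 and 0.555 CPM with shNizp1#1 and 0.326, 3.25 and 0.587 CPM with shNizp1#2. Number 2 was highest in each of the 3 fusion groups. The gene did not pass the filter on low counts and was not tested. Abca1, which passes cholesterol to apolipoprotein A-I, was at 35.3, 34.3 and 2.39 CPM in empty vector control cells, 31.97, 41.9 and 6.28 CPM in fusion control cells, 20.2, 69.8 and 18.1 CPM with shNizp1#1 and 17.5, 50.9 and 7.63 CPM with shNizp1#2. Abcg1, a partner exporter that loads high-density lipoprotein, was at 43.9, 76.6 and 7.38 CPM in empty vector control cells, 28.9, 99.5 and 7.06 CPM in fusion control cells, 31.9, 84.01 and 26.1 CPM with shNizp1#1 and 35.4, 102 and 10.6 CPM with shNizp1#2. Both exporters were lowest within each group in number 3, though with shNizp1#1 number 3 was close to number 1. Within each fusion group they were highest in number 2. Mylip, the ubiquitin ligase that degrades lipoprotein receptors, was at 92.5, 76.4 and 36.7 CPM in empty vector control cells, 72.7, 68.4 and 24.1 CPM in fusion control cells, 83.98, 98.2 and 34.996 CPM with shNizp1#1 and 109, 93.8 and 26.4 CPM with shNizp1#2. Number 3 was lowest in every group here too. Nr1h2, which encodes LXR beta, was the main LXR transcript at 60.5 CPM per kilobase over the 12 libraries, against 0.526 for Nr1h3.

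**Figure D3:**
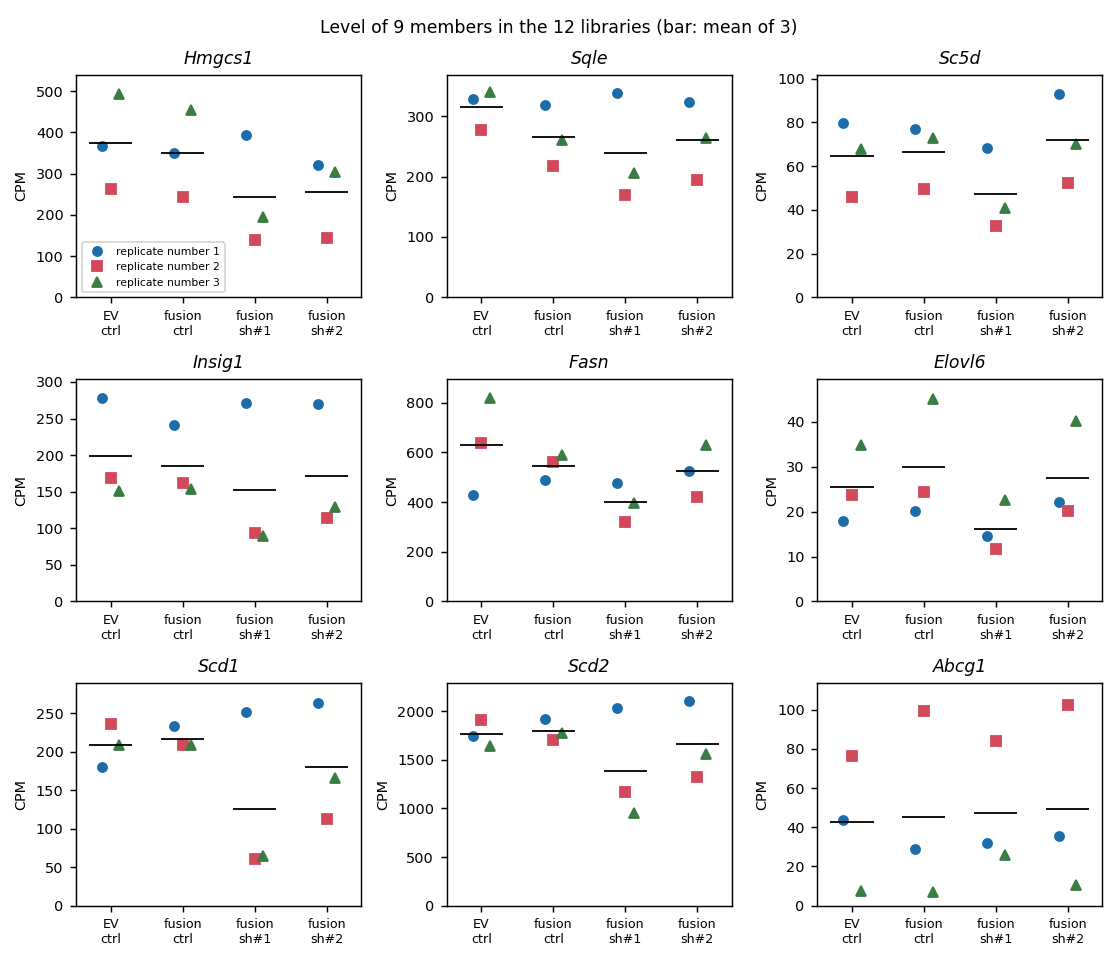
Level in CPM of 9 genes in the 12 libraries, one panel a gene, with groups on the horizontal axis (EV, empty vector; fusion, NUP98-NSD1; ctrl, sh#1 and sh#2, the shRNA), a symbol for each replicate number and a bar at the group mean. For the enzymes, the shNizp1#1 libraries of numbers 2 and 3 were under the fusion control library of their own number, as for Scd1 at 60.8 and 64.2 CPM. Abcg1 was lowest within each group in number 3, at 26.1 CPM with shNizp1#1 and 7.06 to 10.6 CPM in the other groups.

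The fusion by itself moved no member past the test. Comparing fusion control cells with empty vector control cells, which asks what NUP98-NSD1 does before Nizp1 is lowered, edgeR called 0 of 37 members without the block and 0 with it, where 0.00834% and 0.275% of all tested genes were called. At an unadjusted p under 0.05 the counts were 0 and 1 (Mylip, lower with the block), where 2.67% and 11% of all genes were under it. With the block, 28 of 37 members were below 0 with a median log2 fold change of -0.10, against 6016 of 11994 genes with a median near 0 (0.01 without the block). DESeq2 and limma-voom, run without the block, also called 0 members. Of the 18 sterol synthesis genes, 15 were below 0 (median -0.12).

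The 8 members with the largest change in the fit without the block are given here as log2 fold change ± SE from the blocked fit, and none differed from 0 past the test. Those below 0 were Mylip at -0.36 ± 0.14, Pmvk (phosphomevalonate kinase) at -0.30 ± 0.20, Sqle at -0.27 ± 0.12, Fads2 at -0.26 ± 0.28, Fasn at -0.18 ± 0.21 and Cyp51, the lanosterol demethylase, at -0.19 ± 0.18. Above 0 were Elovl6 at 0.21 ± 0.15 and Insig2, the second Insig protein, at 0.22 ± 0.13. The lowest adjusted p of any member in edgeR was 0.394 with the block. Srebf1 was the single member whose groups did not overlap, with fusion control cells lower (2.70% of members; 3.74% of all genes were lower in that way). Under all 3 replicate numbers, 7 members were lower with the fusion (18.9%, against 16.3% of all genes) and fewer were higher. Of the fatty acid genes, 9 of 9 were higher with the fusion in number 1, whereas 8 of 9 were lower in number 2 and 7 of 9 in number 3. Of all 11994 tested genes, 5944 were higher in number 1, and 5972 and 5829 were lower in numbers 2 and 3. With 1 library per group and number, these counts have no test.

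With shNizp1#1, 2 enzymes fell relative to the control shRNA in fusion cells once the replicate number was taken into account. Elovl6 was at 16.2 ± 5.59 CPM (SD, n = 3) against 29.9 ± 13.4 CPM (SD, n = 3), or -0.85 on the log2 scale with an SE of 0.16 (adjusted p = 0.0159, blocked edgeR fit). Sc5d was at 47.4 ± 18.8 CPM (SD, n = 3) against 66.4 ± 14.8 CPM (SD, n = 3), or -0.53 on the log2 scale with an SE of 0.12 (adjusted p = 0.04, blocked edgeR fit). Those 2 of 37 members compare with 1.12% of all tested genes called lower. Without the block edgeR called 0 members and 0% of all genes lower, and DESeq2 and limma-voom also called 0 members. At an unadjusted p under 0.05, 2 members (Fdft1 and Tm7sf2) were lower without the block and 14 with it, where 2.43% and 6.67% of all genes were.

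The direction was shared along the pathways. All 18 of 18 sterol synthesis genes had a log2 fold change below 0 (median -0.50 with the block, -0.47 without), as did 9 of 9 fatty acid genes (median -0.35), against 6079 of all 11994 genes. In the step groups the blocked medians were -0.58 for 7 mevalonate genes, -0.43 for 3 squalene and lanosterol genes and -0.49 for 8 later genes. SREBP control had 4 of 5 below 0 (median -0.20), and the LXR genes had 3 of 4 above 0 (median 0.46). Over all 37 members, 33 were below 0 with a median of -0.38. These genes are known to be regulated together and are not independent of one another.

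Single members that missed the threshold had changes of similar size. In the blocked edgeR fit, Fdft1, squalene synthase, stood at -0.89 on the log2 scale (SE 0.20, adjusted p = 0.0598). Hsd17b7, a late 3-ketosteroid reductase, had -0.79 (SE 0.20, edgeR adjusted p = 0.0712), and Tm7sf2, a reductase of the sterol ring, had -0.92 (SE 0.25, edgeR adjusted p = 0.0993). Acat2, which makes acetoacetyl-CoA, had -0.83 (SE 0.28), Mvd, mevalonate diphosphate decarboxylase, -0.85 (SE 0.39) and Scd1 -0.998 (SE 0.49), with edgeR adjusted p of 0.241, 0.441 and 0.495. Without the shNizp1#1 library of number 1, Mvd was at -1.41 (blocked edgeR fit, adjusted p = 0.03) and Scd1 at -1.68 (adjusted p = 0.0912), and without that of number 3 Mvd was at -0.54 (adjusted p = 0.691). Fasn, Fdft1 and Tm7sf2 were lower with shNizp1#1 without overlap of the groups (8.11% of members, 4.42% of all genes), and 12 members were lower under all 3 numbers (32.4%, against 18.1% of all genes).

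By replicate number the comparison split. In number 1, 8 sterol synthesis genes were higher and 10 lower with shNizp1#1, with a median difference of -0.01 in log2(CPM + 1). In number 2, 18 of 18 were lower (median -0.85), and in number 3 also 18 of 18 (median -0.79). Of all tested genes, 6027, 6357 and 5693 were lower in numbers 1, 2 and 3. With 1 library per group and number, the difference between numbers has no test. Zkscan17 was lower with shNizp1#1 in number 1 too, at 34.97 against 62.6 CPM. Without the shNizp1#1 library of number 1, the blocked fit called 10 of 37 members lower (Acat2, Cyp51, Elovl6, Fdft1, Hmgcs1, Hsd17b7, Insig1, Mvd, Sc5d and Tm7sf2), where 0.535% of all genes were called lower. With all libraries and no filter on low counts, the blocked fit called 19 members lower, against 1.22% of all genes. Without the fusion control library of number 1 the filtered fit called Elovl6 alone (0.364% of all genes), and without any one of the libraries of numbers 2 and 3 of both groups it called 0.

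**Figure D4:**
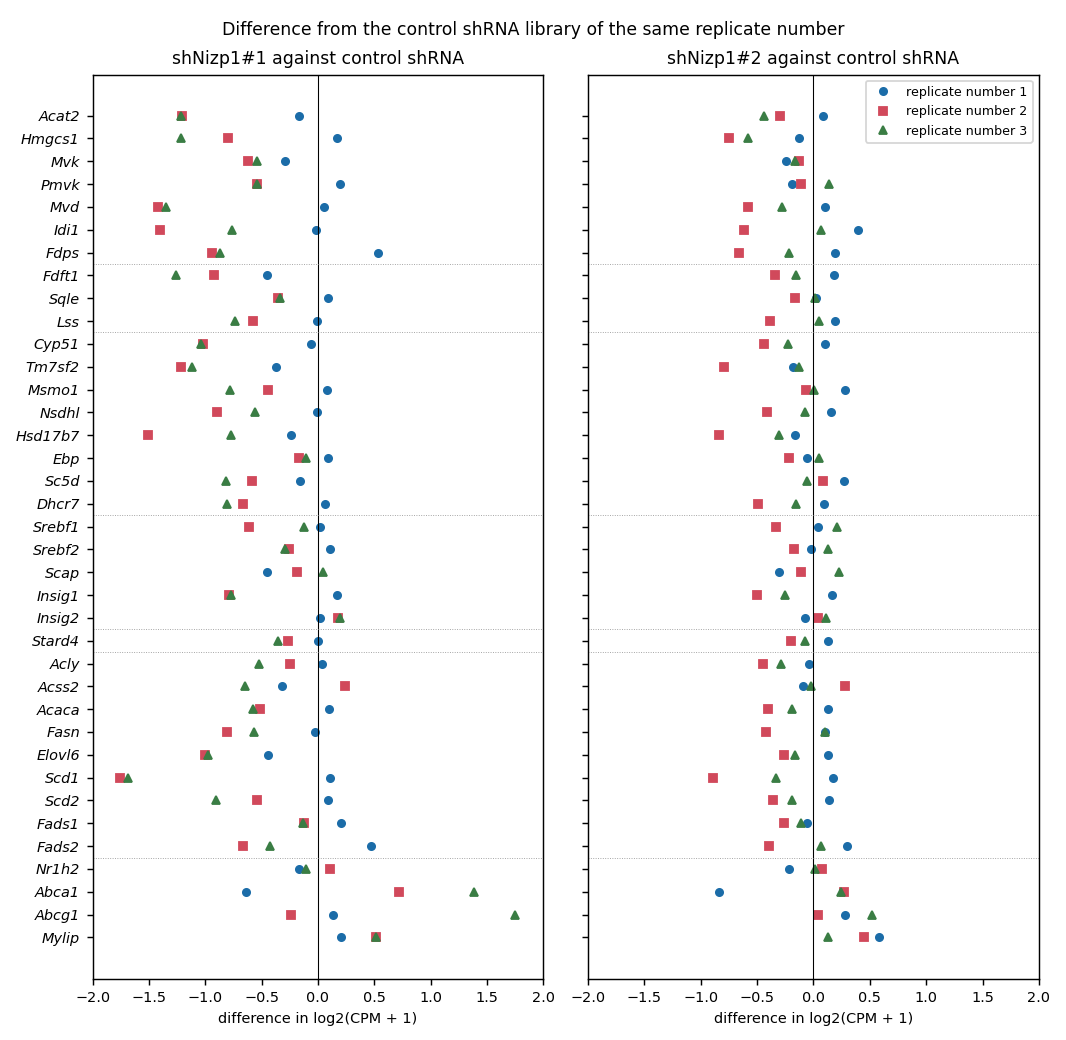
Difference in log2(CPM + 1) between each shRNA library and the fusion control library of the same replicate number for the 37 tested genes, in pathway order from top to bottom, with a symbol for each number. With shNizp1#1 all 18 sterol synthesis genes lay below 0 in numbers 2 and 3 but 10 of 18 in number 1.

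Other genes of the pathways, listed apart from the members, were followed in the same comparison. Among 8 SREBP and sterol sensing partners the blocked edgeR fit called 3 lower: Mbtps1 and Mbtps2, the site-1 and site-2 proteases that release SREBPs, at -0.43 (adjusted p = 0.0477) and -0.65 (adjusted p = 0.0315), and Erlin1, a membrane protein that restrains SREBP release, at -0.63 (adjusted p = 0.0313). Of 17 further fatty acid genes 1 was called lower, Slc25a1, the mitochondrial citrate carrier, at -0.54 (edgeR adjusted p = 0.0443). None of 10 further sterol and isoprenoid synthesis genes, 10 uptake, transfer and storage genes or 7 further LXR genes was called with or without the block. Neutrophil markers moved with the shRNA: 9 of 10 were below 0 and 5 were called lower with the block (Camp -1.72, Ngp -1.55, Ltf -1.51 and S100a8 -1.31 with the largest changes). Their summed level was 455, 1559 and 3.34 CPM in fusion control cells and 202, 846 and 10.3 CPM with shNizp1#1, with Camp, Ltf and Retnlg at 0 in all 4 libraries of number 3. Monocyte and macrophage markers summed to 1279, 3766 and 262 CPM and 1013, 4203 and 1317 CPM, with 6 of 10 above 0 and 0 called. Eosinophil markers had 2 of 5 called lower (Epx and Prg2). The part of these cell types in the lower pathway genes was not tested.

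With shNizp1#2 no member passed the test. Zkscan17 was lower with shNizp1#2 than with shNizp1#1 in every number, but the groups overlapped. A direct comparison did not call that difference, at -0.32 on the log2 scale with the block (edgeR adjusted p = 0.23), nor did the fit without the block. Hmgcs1 was at 256 ± 97.4 CPM (SD, n = 3) against 349 ± 106 CPM (SD, n = 3) with the control shRNA, and Scd1 at 180.2 ± 76.5 CPM (SD, n = 3) against 217 ± 14.6 CPM (SD, n = 3). edgeR called 0 of 37 members without and 0 with the block, where 0.00834% and 0.217% of all genes were called. At an unadjusted p under 0.05 it counted 0 members without the block and 2 with it, Hsd17b7 lower and Mylip higher, where 2.38% and 11.1% of all genes were under it. DESeq2 and limma-voom also called 0 without the block. With the block, 31 of 37 members were below 0 but their median was -0.10, against 6039 of 11994 genes. Sterol synthesis genes had 16 of 18 below 0 (median -0.14) and fatty acid genes 8 of 9 (median -0.14).

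For the 8 members with the largest change without the block, the log2 fold change ± SE with the block was -0.50 ± 0.26 for Hmgcs1, -0.44 ± 0.19 for Hsd17b7, -0.37 ± 0.23 for Tm7sf2, -0.36 ± 0.47 for Scd1, -0.26 ± 0.36 for Mvd, -0.23 ± 0.26 for Acat2, -0.26 ± 0.13 for Acly and 0.42 ± 0.14 for Mylip. The lowest adjusted p among members was 0.291 in edgeR, for Mylip. Acly, which makes acetyl-CoA from citrate, was the only member lower without overlap of the groups (2.70% of members, 3.04% of all genes). In number 1, 12 of 18 sterol synthesis genes were higher with shNizp1#2 (median 0.10 in log2(CPM + 1)). In number 2, 17 were lower (median -0.40), and in number 3, 12 (median -0.14). Both shRNA comparisons use the same 3 fusion control libraries. None of the other pathway lists had a gene called, and 7 of 10 neutrophil markers were below 0 with 0 called.

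The 2 shRNAs differed from each other in 2 members, by a direct comparison that leaves the control libraries out of the contrast. Sc5d was at 71.9 ± 20.4 CPM (SD, n = 3) with shNizp1#2 and 47.4 ± 18.8 CPM (SD, n = 3) with shNizp1#1, higher by 0.63 on the log2 scale with an SE of 0.12 (adjusted p = 0.0118, blocked edgeR fit). Elovl6 was at 27.5 ± 11.004 CPM (SD, n = 3) and 16.2 ± 5.59 CPM (SD, n = 3), higher by 0.75 with an SE of 0.16 (adjusted p = 0.0235, blocked edgeR fit). Each was higher with shNizp1#2 in all 3 numbers. Among all genes 1.78% were called higher with shNizp1#2. Without the block 0 members were called and 0.00834% of all genes in either direction, and at an unadjusted p under 0.05 1 member (Fdft1) was higher without and 7 with the block, where 3.16% and 8.63% of all genes were. These 2 calls and the 2 against the control shRNA rest on the same 3 shNizp1#1 libraries.

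Of the 18 sterol synthesis genes 17 were above 0 with shNizp1#2 (median 0.37), as were 7 of 9 fatty acid genes (median 0.30) and 30 of all 37 members, against 5964 of 11994 genes. Fdft1 had 0.79 (SE 0.20, edgeR adjusted p = 0.0696) and Idi1 0.66 (SE 0.20, edgeR adjusted p = 0.128). Log2 fold changes of Mvd, Acat2, Tm7sf2 and Scd1 were 0.59 ± 0.38, 0.60 ± 0.27, 0.56 ± 0.25 and 0.64 ± 0.48 (SE), none of them called. Without the shNizp1#1 library of number 1 these 4 values were 1.19, 1.003, 0.91 and 1.38, and without that of number 3 Mvd, Tm7sf2 and Scd1 were at 0.28, 0.30 and 0.33, again with none called. By number, 13, 17 and 18 of 18 sterol genes were higher with shNizp1#2, with medians of 0.12, 0.45 and 0.72 in log2(CPM + 1). Over all members, 22 were higher under all 3 numbers (59.5%, against 22.2% of all genes), though for none did the groups separate without overlap. Without the shNizp1#1 library of number 1 the blocked fit called 5 members higher (Cyp51, Elovl6, Fdft1, Msmo1 and Sc5d), where 0.551% of all genes were called higher. Without that of number 2 it called Sc5d alone (0.951% of all genes), and without any of the other 4 libraries it called 0. Mbtps1 (0.41), Mbtps2 (0.67) and Erlin1 (0.61) were also called higher, as were Acsl4 (0.40), a ligase that activates arachidonic acid, and 5 of 10 neutrophil markers. The neutrophil markers summed to 345, 1590.3 and 9.39 CPM with shNizp1#2, and their part in the difference was not tested.

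The members were also compared between replicate numbers. The 4 libraries of a number are 1 of each group, so a contrast between numbers, fitted with the group as a covariate, compares these sets of libraries and says nothing of what set them apart. In number 2 against number 1, edgeR called 16 of 37 members lower (43.2%, against 12.6% of all genes) and 2 higher (against 13.4%). All 18 sterol synthesis genes were below 0 (median -0.64) and 13 of them were called, against a median of -0.04 over all genes. The fit takes 1 difference for all groups, but the summed fall was larger with either hairpin than in the control groups. The summed level in numbers 1 and 2 was 2133 and 1863 CPM in empty vector control cells. It was 2121 and 1600.2 CPM in fusion control cells, 2144 and 985 CPM with shNizp1#1 and 2239 and 1239 CPM with shNizp1#2. Not every gene fell in every group. In empty vector control cells number 2 was above number 1 for Mvd (54.2 against 33.9 CPM), Lss (255 against 215 CPM), Acat2, Nsdhl and Tm7sf2. Fdft1 and Dhcr7 were nearly level there, and the other sterol synthesis genes were lower in number 2. In fusion control cells Mvd was also higher in number 2 (46.4 against 43.1 CPM). Insig1 fell by 1.02 on the log2 scale (SE 0.15, edgeR adjusted p = 0.00102). Hmgcs1 fell by 0.94 (SE 0.23, edgeR adjusted p = 0.0201), Hsd17b7 fell by 0.94 (SE 0.17, edgeR adjusted p = 0.00212) and Idi1 fell by 0.90 (SE 0.18, edgeR adjusted p = 0.00371). Fdps, with the overlap named above, fell by 1.09 (SE 0.35, edgeR adjusted p = 0.0341). Scap, the SREBP escort, rose by 0.37 (SE 0.10, edgeR adjusted p = 0.0176) and Abcg1 by 1.37 (SE 0.35, edgeR adjusted p = 0.0273).

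Of the fatty acid genes, 7 of 9 were below 0 in that comparison (median -0.14) and 1, Acss2, was called lower. The libraries of numbers 1 and 2 did not overlap for 13 lower members (35.1%, against 10.4% of all genes) and for Abcg1 and Scap, which were higher (5.41% against 12.2%). Without the fusion control libraries the count of lower members was 10 (4.99% of all genes), and without the shNizp1#2 libraries it was 7 (3.44% of all genes). Of the uptake, transfer and storage list, 3 of 10 were called lower and 4 higher, among them Vldlr, a lipoprotein receptor, at -1.51 and Soat1, which esterifies cholesterol, at 0.86. Me1, the malic enzyme that yields NADPH for fatty acid synthesis, was at -1.004 and Mid1ip1, an activator of acetyl-CoA carboxylase, at -0.74, and 4 of 17 in their list were called lower. The other sterol and isoprenoid list had 3 of 10 called lower, and the other LXR list 4 of 7 called higher and 1 lower. Neutrophil markers were 10 of 10 above 0 with 8 called (median 1.92) and monocyte markers 10 of 10 with 4 called (median 1.51). Their part in the lower sterol genes was not tested.

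In number 3 against the mean of numbers 1 and 2, the LXR genes fell while Acss2 and Elovl6 rose. All 4 tested LXR genes were called lower (median -1.81): Abcg1 fell by 2.17 on the log2 scale (SE 0.36, edgeR adjusted p = 0.00261), Abca1 fell by 2.10 (SE 0.45, edgeR adjusted p = 0.00834), Mylip fell by 1.51 (SE 0.11, edgeR adjusted p = 4.70e-07) and Nr1h2 fell by 0.39 (SE 0.08, edgeR adjusted p = 0.00146). Insig1 fell by 0.54 (SE 0.13, edgeR adjusted p = 0.00686). Acss2, which makes acetyl-CoA from acetate, rose by 1.22 (SE 0.11, edgeR adjusted p = 8.27e-06) and Elovl6 by 0.87 (SE 0.11, edgeR adjusted p = 4.46e-05). Tm7sf2 rose by 0.54, Hsd17b7 by 0.51 and Acat2 by 0.54 (edgeR adjusted p = 0.0232, 0.0102 and 0.05).

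In all, 7 members were called higher (18.9%, against 20.8% of all genes) and 6 lower (16.2%, against 23.2%), shares below those of all genes in both directions. The libraries of number 3 lay apart from the 8 others for Acss2, which was higher (2.70%, against 6.68% of all genes), and for Abcg1, Mylip and Nr1h2, which were lower (8.11%, against 9.2%). Other LXR genes had 7 of 7 below 0 with 4 called, led by Apoe (-2.52), the lipoprotein that accepts exported cholesterol, and Smpdl3a (-2.12). Other fatty acid genes had 7 of 17 called higher, led by Me1 (1.54), and 3 called lower. Without the shNizp1#1 libraries 12 members were called higher (15% of all genes), and without the shNizp1#2 libraries 4 (11% of all genes). Monocyte and macrophage markers were 10 of 10 below 0 with 9 called, at 104 to 1317 summed CPM in number 3 and 1013 to 4426 in numbers 1 and 2. Neutrophil markers were all called lower, at 3.04 to 10.3 against 202 to 1614 summed CPM, and 7 of 10 mast cell markers were called lower. The part of monocytes and macrophages in the LXR genes was not tested.

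**Figure D5:**
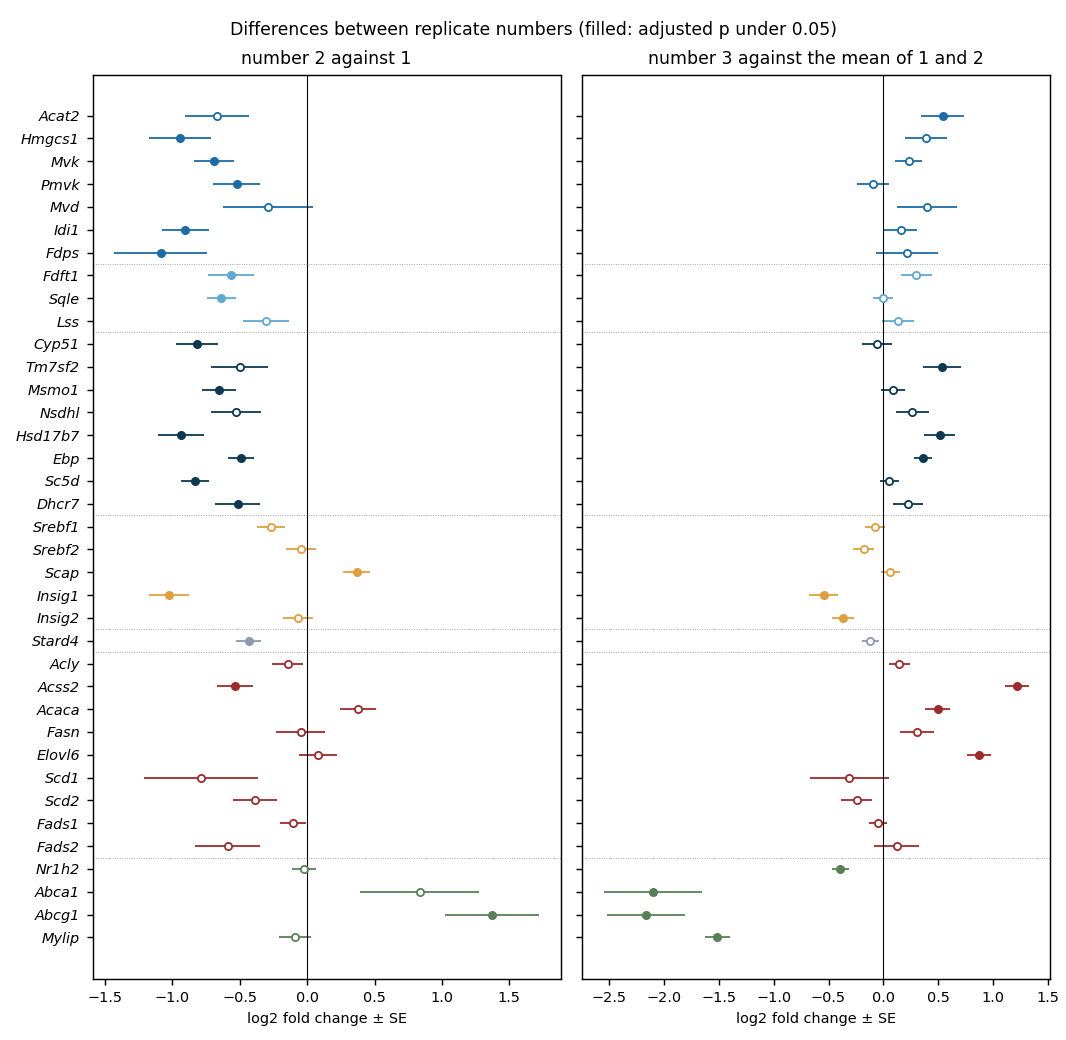
Log2 fold change ± SE of the 37 tested genes between replicate numbers, with the group as covariate, in pathway order from top to bottom. Filled points passed an adjusted p under 0.05 in edgeR: 13 of 18 sterol synthesis genes were filled and below 0 in number 2 against 1 on the left, and all 4 LXR genes in number 3 against the mean of 1 and 2 on the right.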

How the data were processed

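Messenger RNA from 12 libraries, 3 in each of 4 groups, was sequenced in single reads of 75 bases, per the labels. The deposited values are raw whole-number counts per gene, made with Trimmomatic 0.32, STAR 2.5.3a and featureCounts on mm10, per the submitters' processing notes. For featureCounts the release, strandedness and gene models are not stated in the sources used here. Genes kept by edgeR's expression filter were tested with its quasi-likelihood F test (edgeR 4.0.16, R 4.3.3, TMM scaling, Benjamini-Hochberg adjustment over all 11994 tested genes, threshold 0.05). All 12 libraries entered 1 fit of group means, and a second fit added the replicate number as a block, since the numbers pair the libraries: same-number deviations correlated at a median of 0.738 (18 pairs, all above 0.1), against -0.196 for other pairs. Deviations sum to 0 within a group, which draws other pairs below 0 where same-number pairs correlate, so the second value is no separate support. Numbers were compared with the group as covariate. Levels are CPM of the TMM-scaled total over the tested genes, and differences by number use log2(CPM + 1). Log2 fold changes are given for called members and, up to 8, those of largest change without the block, and for the 5 largest called in each direction between numbers. The members and lists were chosen with earlier results of these data known. The statistics were tested on simulated data. Alternatives were RLE and upper-quartile scaling, no filter, 2 groups only, DESeq2 1.42.0, limma-voom (limma 3.58.1) and leaving out libraries. Replicates differed beyond sampling noise in every group.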

Additional observations from a re-analysis of the deposited data

Results flagged for a closer look

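2 members differed between the 2 hairpins against Nizp1 by a direct test of the difference, in edgeR with the replicate number as a block: Elovl6, with a log2 fold change of 0.75 for shNizp1#2 against shNizp1#1, and Sc5d, with 0.63. Neither passed without the block.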

How the results depend on the processing

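Counts of called members in the comparisons between groups depended on the replicate block and on the filter, while scaling (RLE, upper quartile), DESeq2, limma-voom, fits of 2 groups only and no filter each gave 0 calls without the block. With the replicate block, RLE scaling left 2 members lower with shNizp1#1 and 2 higher with shNizp1#2 than with shNizp1#1. With the block and no filter these counts were 19 and 11, with 1 lower in the latter comparison (Abca1) and 1 lower with shNizp1#2 against the control shRNA (Hmgcs1). The 19 compare with 1.22% of all genes, and the share of all genes that goes with the 11 is not given here. Leaving out 1 library, or all 4 of a number, with the block gave 0 to 10 lower with shNizp1#1 and 0 to 5 higher with shNizp1#2 against shNizp1#1. Of these settings, leaving out all of number 1 and leaving out all of number 2 were chosen after seeing the data. Leaving out all of number 1 gave a median between the hairpins of 0.45. The members' median log2 fold change ranged, over libraries left out, from -0.17 to 0.016 for the fusion (-0.26 to -0.02 with the block), from -0.68 to -0.23 for shNizp1#1 (-0.65 to -0.23), from -0.19 to 0.06 for shNizp1#2 (-0.17 to -0.02) and from 0.15 to 0.58 between the hairpins (0.12 to 0.54). Between numbers, no filter gave 4 members higher in number 2 than in 1 and 13 higher in number 3. The shares of all genes called without the filter are not given here, so those counts do not set the members apart. With the filter, 13.4% and 20.8% of all genes were called higher. Leaving out 1 group at a time gave 0 to 2 higher and 7 to 18 lower in number 2. In number 3 it gave 4 to 12 higher and 6 to 7 lower. The 7 lower in number 2 compare with 3.44% of all genes, and the 4 and 12 higher in number 3 with 11% and 15%. For the 18 lower and 0 to 2 higher in number 2 and the 6 to 7 lower in number 3, the shares are not given here. Over libraries left out, single values changed sign for Mylip (-0.62 to 0.039), Elovl6 (-0.19 to 0.53) and Fasn (-0.42 to 0.036) under the fusion and for Acat2 with shNizp1#2 (-0.45 to 0.088). The sign changed for Mylip and Elovl6 without fusion control replicate 3, for Fasn without empty vector replicate 3, and for Acat2 without fusion control replicate 3 or shNizp1#2 replicate 2 (0.016). None of these changes was called in those comparisons, and the cause was not tested. Depth limits Nr1h3 most, with 72 counts in 12 libraries.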
